A study of Mus musculus with 6 samples.

Results

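The genes described here encode ion channels and neurotransmitter receptors, the membrane proteins through which neurons, sensory cells and muscle make and pass electrical signals. They were chosen by symbol: each gene in any of the 4 deposited lists whose symbol carries the root of a potassium (Kcn), calcium (Cacn), sodium (Scn), pacemaker (Hcn), chloride (Clcn), TRP, glutamate (Gria, Grik, Grin, Grm), GABA-A (Gabr), glycine (Glra, Glrb), nicotinic (Chrn), P2X (P2rx) or calcium release (Ryr, Itpr) family. This gave 22 of the 1167 distinct genes in the lists. Of these, 20 were in the homozygous lists, 2 in the heterozygous lists and 0 in both. Over all genes, 56 were listed in both genotypes, 5.16% of the 1085 homozygous and 40.6% of the 138 heterozygous calls, so 0 of 20 is near the share over all homozygous calls. RNA came from otocysts, the epithelial vesicles that become the inner ear, taken from mouse embryos of the B6129SF1/J strain at embryonic day 10.5. The embryos were Chd7Gt/Gt (homozygous), Chd7Gt/+ (heterozygous) or Chd7+/+ (wild type), where Gt denotes a gene trap allele in mouse nomenclature and Chd7 encodes a chromatin remodeller. Polyadenylated RNA was sequenced in 2 libraries a genotype. The labels give neither the sex of the embryos nor whether a library held pooled embryos, so the adjusted p-values cover only how far these libraries differ among themselves, which can be a technical spread.

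The deposited lists give, for each gene, a log2 fold of mutant over wild type and an adjusted p, and no value for a single library. Depth, levels and replicate spread are therefore unknown here, and every gene in a list had already passed the authors' test, with adjusted p-values up to 0.0499 per the authors' deposited table. A gene in no list is called not listed, since it may have failed the test or may not have been measured. Chd7 itself stood at 22.4% of wild type in homozygotes (log2 -2.16 and adjusted p 1.54e-10) and at 67.1% in heterozygotes (log2 -0.57 and adjusted p 7.27e-07, per the authors' deposited table). Both mutant genotypes were compared with the same 2 wild type libraries.

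A neuron fires when voltage-gated sodium channels open and depolarise it, and voltage-gated potassium channels bring it back to rest. Calcium channels at its terminals then release transmitter, which acts on ligand-gated or G-protein-coupled receptors of the next cell. Around this stage of mouse development, neuroblasts leave the otic epithelium and begin to form the ganglion that will connect hair cells to the hindbrain, while hair cells themselves have not yet differentiated.

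The channel and receptor genes listed as lower in homozygous otocysts came from many classes, though most annotated ones were not listed. Of 248 annotated protein-coding genes that carry these symbol roots, 19 were listed as lower (7.66%), against 2.97% of all 21924 annotated protein-coding genes. A single one, Kcne3, was listed as higher (0.403%), against 1.78% of all annotated protein-coding genes. The number of genes the authors tested is not known, so annotated genes are the denominator, and how many channel genes were too low to be tested is not known either. The 19 lower genes had a median of -1.89 on the log2 scale, per the authors' deposited table, against -1.35 over all 669 genes listed as lower. Their log2 folds ran from -3.45 to -0.72, per the authors' deposited table, 17 of them lay under 50% of wild type, and 16 lay further from 0 than the median of the whole list. The fall took in sodium, calcium and potassium channels, a pacemaker channel, a chloride transporter, a TRP channel, and receptors for glutamate, glycine, acetylcholine and ATP.

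**Figure D1:**
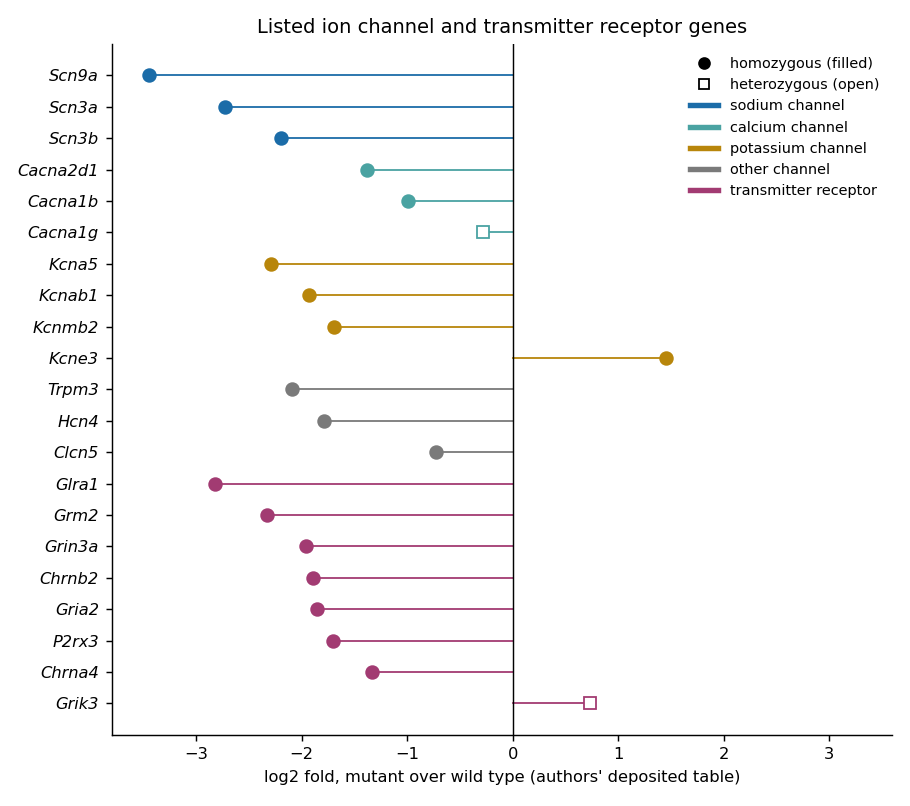
Log2 folds of 21 of the 22 listed ion channel and transmitter receptor genes (x axis, mutant over wild type, authors' deposited table), one gene per row and coloured by role, with filled circles for homozygous and open squares for heterozygous otocysts. All homozygous points but Kcne3 lie left of 0, from -3.45 for Scn9a to -0.72 for Clcn5.

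Sodium channel genes included the largest fall of any channel. Voltage-gated sodium channels carry the upstroke of the action potential, and 3 of their 14 annotated subunit genes were lower, 2 of 10 pore genes and 1 of 4 auxiliary genes. The share over all annotated protein-coding genes was 2.97%, and a count in so small a class is not read as a result. Scn9a, whose channel is best known from pain-sensing and other peripheral sensory neurons, stood at 9.15% of wild type (log2 -3.45 and adjusted p 9e-08, per the authors' deposited table). It ranked 13 by size of fold among the 669 lower genes. Scn3a, the pore gene typical of the embryonic nervous system, stood at 15.1% (log2 -2.73 and adjusted p 6.45e-06, per the authors' deposited table). Scn3b, an auxiliary subunit that modulates the gating of sodium pores, stood at 21.8% (log2 -2.20 and adjusted p 0.00223, per the authors' deposited table). The other pore genes, among them Scn1a, Scn2a and Scn8a, were not listed.

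Calcium channel genes had folds nearer to 0. Of 26 annotated subunit genes, 2 were lower in homozygotes, and they are known to form parts of the same channel complex. With 2.97% of all annotated protein-coding genes lower in homozygotes, nothing is read from a count of 2 in 26. Cacna1b encodes the pore of the N-type channel that triggers transmitter release, and it stood at 50.4% of wild type (log2 -0.99 and adjusted p 0.00522, per the authors' deposited table). Cacna2d1, an auxiliary subunit that carries calcium channels to the membrane and binds gabapentin, stood at 38.5% (log2 -1.38 and adjusted p 0.000332, per the authors' deposited table). No Cacnb or Cacng gene was listed. The calcium release channels of internal stores, Ryr and Itpr, had 0 of 6 genes listed, too few genes to read anything from.

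Potassium channel genes formed the largest family, and most were not listed. Of 94 annotated genes, auxiliary subunits included, 4 were lower and 1 was higher in homozygotes. Over all annotated protein-coding genes, 2.97% were listed as lower and 1.78% as higher in homozygotes. Kcna5, a delayed rectifier of the Shaker type, stood at 20.5% of wild type (log2 -2.29 and adjusted p 0.0114, per the authors' deposited table). Kcnab1, whose product binds Shaker-type channels and speeds their inactivation, stood at 26.2% (log2 -1.93 and adjusted p 0.0195, per the authors' deposited table). Kcnmb2, an auxiliary subunit of the large-conductance calcium-activated channel, stood at 30.9% (log2 -1.69 and adjusted p 0.0273, per the authors' deposited table), while the pore gene of that channel, Kcnma1, was not listed. The only higher gene was Kcne3, an auxiliary subunit that in epithelia holds Kcnq1 channels open. It was 2.74-fold higher (log2 1.45 and adjusted p 0.000332, per the authors' deposited table), and Kcnq1 was not listed. None of the 15 inward rectifier, 14 tandem-pore or 8 calcium- or sodium-activated pore genes was listed in either genotype. Given the share over all genes, nothing is read from these absences.

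**Figure D2:**
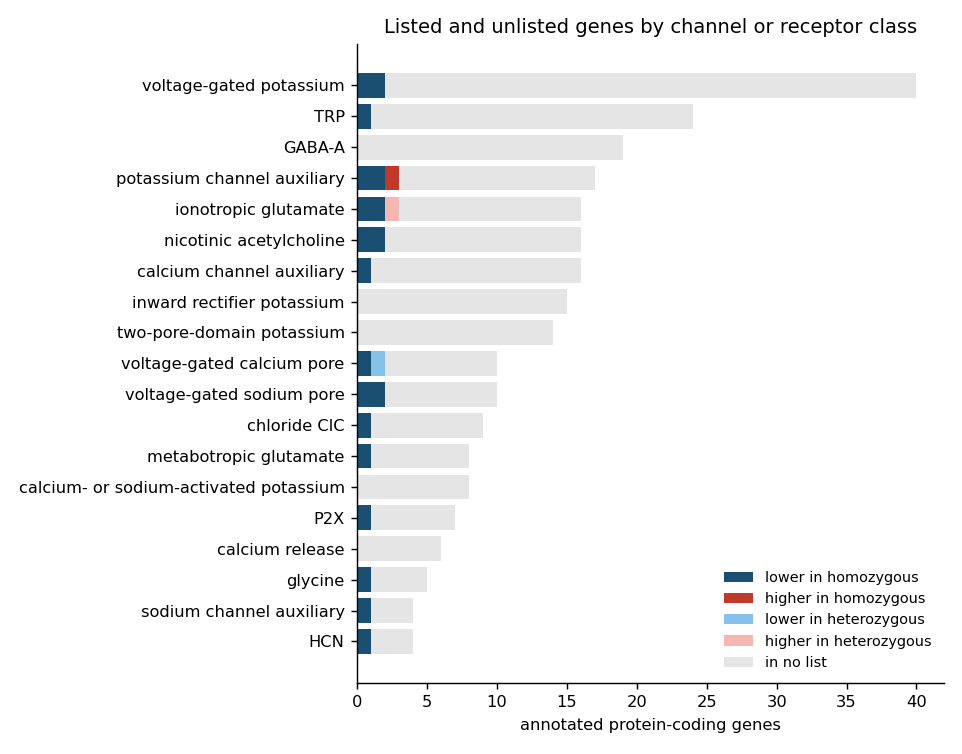
Number of annotated protein-coding genes in each channel or receptor class (x axis), divided by colour into genes listed as lower or higher in homozygous or heterozygous otocysts and genes in no list. Calls are spread thinly: no class has more than 3 listed genes, and GABA-A receptors have 0 of 19. Over all annotated protein-coding genes 2.97% were lower in homozygotes, so a class of this size with 0 is not read as a result.

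Among receptors for transmitters, ionotropic and metabotropic, 7 of 71 annotated genes were lower in homozygotes and 0 were higher. Glra1, the adult-type pore subunit of the inhibitory glycine receptor of spinal cord and brainstem, stood at 14.1% of wild type (log2 -2.82 and adjusted p 0.00287, per the authors' deposited table), the second largest fall after Scn9a. It was the sole inhibitory receptor gene listed of 24, since 0 of 19 GABA-A genes were. With 2.97% of all annotated protein-coding genes lower in homozygotes, nothing is read from a count of 0 in so small a class. Glutamate receptors gave 1 metabotropic, 1 NMDA-type and 1 AMPA-type gene, and 0 of 5 kainate-type genes. Grm2, a G-protein-coupled receptor that dampens transmitter release, stood at 20.0% (log2 -2.32 and adjusted p 0.00407, per the authors' deposited table). Grin3a, an NMDA receptor subunit that lowers calcium entry, stood at 25.8% (log2 -1.96 and adjusted p 0.0402, per the authors' deposited table). Gria2, the AMPA receptor subunit whose edited form blocks calcium entry, stood at 27.7% (log2 -1.85 and adjusted p 0.00571, per the authors' deposited table). Grin1, which every NMDA receptor needs, was not listed.

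Both subunits of the main nicotinic acetylcholine receptor of the brain fell, and they were 2 of 16 annotated nicotinic genes. Beside the 2.97% of all annotated protein-coding genes lower in homozygotes, a count in so small a class is not read as a result. Chrnb2 stood at 27.0% of wild type (log2 -1.89 and adjusted p 0.00266, per the authors' deposited table). Chrna4 stood at 39.8% (log2 -1.33 and adjusted p 0.00336, per the authors' deposited table). The muscle nicotinic genes Chrna1, Chrnb1, Chrnd and Chrng were not listed. Exons of Chrnb2 overlap those of Adar on the opposite strand over 1365 bases, and the library kit named in the labels does not mark strand, so reads from the overlap cannot be told apart. Adar was not listed. P2rx3, an ATP-gated channel of sensory neurons, stood at 30.8% of wild type (log2 -1.70 and adjusted p 0.00135, per the authors' deposited table). It was the only listed gene of 7 in its family, too few to read beside the 2.97% over all genes. Its exons share 51 bases with Ssrp1 on the opposite strand, which was not listed. Exons of Glra1, Grm2, Kcnab1, Kcne3, Scn9a and Trpm3 overlap annotated non-coding transcripts on the opposite strand over 9 to 470 bases.

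The remaining 3 lower genes belong to other channel families. Trpm3 encodes a heat- and steroid-sensitive cation channel. It had the smallest adjusted p of all channel genes (7.97e-11), at 23.4% of wild type (log2 -2.09), per the authors' deposited table. Trpm3 was the only one listed of 24 genes with a TRP symbol root. The share over all annotated protein-coding genes was 2.97%, so nothing is read from 1 of 24. Hcn4, a pacemaker channel opened by hyperpolarisation, stood at 29.0% (log2 -1.79 and adjusted p 0.0371, per the authors' deposited table). Clcn5, an endosomal chloride-proton exchanger that is not specific to neurons, fell least, to 60.7% (log2 -0.72 and adjusted p 0.000208, per the authors' deposited table). Clcn5 is X-linked, and the X-inactivation transcript Xist had a log2 fold of 9.64 in homozygotes per the authors' deposited table, with the sex of the embryos not given. Xist is made in female cells, so homozygous and wild type libraries may hold unlike shares of each sex. That would bear on every homozygous value, not only on Clcn5, and was not tested. Of 36 X-linked genes listed in homozygotes, 20 were lower (55.6%) and 16 higher, against 61.7% lower among all 1085 listed genes. The part of embryo sex in the Clcn5 value was not tested. Grin3a and Hcn4 lie nearest the authors' threshold, and 5 of the 19 lower genes had an adjusted p above 0.01, against 275 of all 669 lower genes (41.1%).

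Promoter sequence was compared among the listed genes, as most of them moved in the same direction. RefSeq promoter windows on GRCm38.p6 were at hand for 15 of the 22 genes, 20 windows in all, and the 250 bases before each transcription start were searched on both strands. Glra1, P2rx3 and Scn3a were among those with none. The first motif was a pair of core words of the RE1 element, AGCACC followed by GGACAG after a gap of 2 to 12 bases, which is the element bound by the neuronal gene repressor REST. All 3 motifs were chosen after these promoters had been read. The 17 windows of lower genes belong to 13 genes, so windows of 1 gene are counted separately. The pair stood in 2 of the 17 windows, those of Gria2 and Grm2, and in 35 of all 32851 windows (0.107%). The second was the E-box CANNTG, the word bound by basic helix-loop-helix factors such as those of the Neurod family, present in 12 of the 17 windows (70.6%) and in 66.2% of all windows. The third was ACGTG, the core word bound by hypoxia-inducible factors. It was present in 3 of the 17 windows (17.6%), all of Kcnab1 or Chrnb2, and in 16.6% of all windows. It also stood in 1 of the 2 windows of Kcne3. An E-box with the letters CACGTG also holds the third word. A match describes letters only and shows no binding.

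The windows that hold the RE1 core words are shown for the glutamate receptor genes Gria2 (chr3:80802836-80803085, minus strand) and Grm2 (chr9:106656110-106656359, minus strand), with those words in capitals. In Gria2 the pair reads on the opposite strand with a gap of 2 bases, and in Grm2 on the gene's own strand with a gap of 7 bases. For comparison, the gene with the largest fall, Scn9a (chr2:66634963-66635212, minus strand), is shown with its only E-box in capitals, and the only higher gene, Kcne3 (chr7:100176420-100176669, plus strand), with ACGTG in capitals. All are RefSeq sequence on GRCm38.p6, written 5′ to 3′ along the gene and ending at the base before the start.
Gria2: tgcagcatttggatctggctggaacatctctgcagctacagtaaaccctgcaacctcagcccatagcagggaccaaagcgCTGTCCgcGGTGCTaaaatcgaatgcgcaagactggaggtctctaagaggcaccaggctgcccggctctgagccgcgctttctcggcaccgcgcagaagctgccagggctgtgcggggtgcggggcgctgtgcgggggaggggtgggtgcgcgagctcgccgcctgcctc
Grm2: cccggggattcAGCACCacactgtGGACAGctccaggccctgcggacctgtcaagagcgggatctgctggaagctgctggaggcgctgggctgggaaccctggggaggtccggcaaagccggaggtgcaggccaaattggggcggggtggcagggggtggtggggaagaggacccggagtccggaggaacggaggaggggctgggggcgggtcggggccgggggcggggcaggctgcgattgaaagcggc
Scn9a: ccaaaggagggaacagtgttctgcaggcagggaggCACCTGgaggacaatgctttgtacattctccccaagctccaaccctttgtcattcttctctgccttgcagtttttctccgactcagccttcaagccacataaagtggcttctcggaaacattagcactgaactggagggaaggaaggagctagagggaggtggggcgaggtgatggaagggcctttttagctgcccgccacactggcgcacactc
Kcne3: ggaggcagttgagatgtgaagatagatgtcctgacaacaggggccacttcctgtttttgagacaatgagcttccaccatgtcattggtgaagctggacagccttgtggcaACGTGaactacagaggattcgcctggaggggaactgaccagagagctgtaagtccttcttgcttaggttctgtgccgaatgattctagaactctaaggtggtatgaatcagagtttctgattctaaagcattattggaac

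Lists of marker genes, chosen with earlier results of these data known, were counted beside the channel genes. Over all annotated protein-coding genes, 2.97% were lower in homozygotes. Of 12 neuron markers, 11 were lower in homozygotes and 0 higher, with a median of -2.10 on the log2 scale, per the authors' deposited table. They included the neuronal RNA-binding protein genes Elavl2 (log2 -1.48) and Elavl4 (-2.29), the growth-cone gene Stmn2 (-2.49) and the neurofilament gene Nefm (-1.99), per the authors' deposited table. Of 45 genes of synapses and transmitter release, 13 were lower (28.9%) and 0 higher, with a median of -2.07 on the log2 scale, per the authors' deposited table. Among them were Slc17a6, which loads vesicles with glutamate (log2 -3.20), Snap25 of the fusion machinery (-2.47), the vesicle gene Syn2 (-2.39) and the ankyrin gene Ank2 (-0.93), per the authors' deposited table. The channel genes' median of -1.89 lay close to both, but each median covers only genes already called lower in the same comparison. Closeness of these medians therefore does not show that the genes moved together. In bulk RNA, fewer neurons and less RNA per neuron cannot be told apart, and the part of neuron number in the channel values was not tested.

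**Figure D3:**
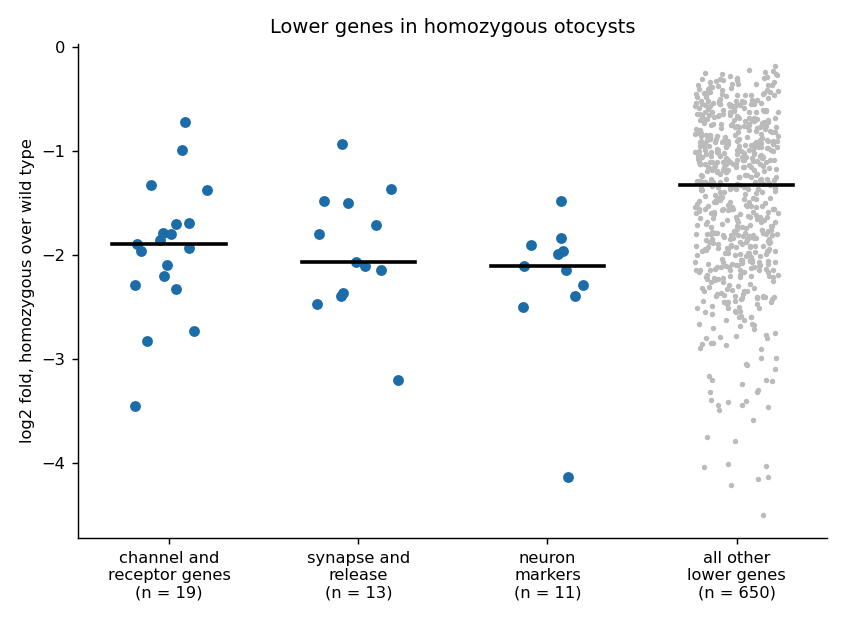
Log2 folds (y axis, homozygous over wild type, authors' deposited table) of genes listed as lower, for 19 channel and receptor genes, 13 synapse and release genes, 11 neuron markers and the 650 other lower genes, which include the synapse and neuron genes. Each point is a gene and the black lines mark medians, which lie at -1.89, -2.07, -2.10 and -1.33.

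Lists for other cell types were shorter and held fewer calls, though not always a smaller share. Of 11 otic epithelium markers 4 were lower in homozygotes, the homeobox gene Otx1 (log2 -4.20), Otol1 (-4.15), Oc90 (-2.21) and Eya1 (-1.33), per the authors' deposited table. That was 36.4% of the otic list, with a median of -3.18 on the log2 scale, per the authors' deposited table. Of 7 mesenchyme markers 3 were lower (42.9%), Postn, Prrx1 and Pou3f4, with a median of -2.62, per the authors' deposited table. Both shares lay above the 28.9% of synapse and release genes and below the 91.7% of neuron markers. Both medians were lower than those of the neuron and synapse lists. Of 6 endothelium markers 2 were higher, Pecam1 (log2 0.92) and Emcn (0.60), per the authors' deposited table. None of the 6 neural tube progenitor, 7 neural crest and glia, 10 muscle or 5 red blood cell markers was listed in homozygotes. Levels were not analysed here, so no marker can be said to be absent.

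Related genes outside the symbol rule were counted as well. Of 65 other channel genes, 4 were lower in homozygotes (6.15%) and 0 higher. Over all annotated protein-coding genes, 2.97% were lower and 1.78% higher. They were the sodium leak channel gene Nalcn (18.3% of wild type, log2 -2.45), the connexin gene Gja5 (20.9%, log2 -2.26), the serotonin-gated channel gene Htr3a (37.9%, log2 -1.40) and the acid-sensing channel gene Asic1, listed as Accn2 (39.0%, log2 -1.36), per the authors' deposited table. Gja5 is best known from arterial endothelium and heart. Of 45 G-protein-coupled receptor genes for dopamine, serotonin, adrenaline, acetylcholine, GABA, histamine, adenosine, nucleotides and opioids, 0 were listed in either genotype. Few calls would be met among 45 genes at the share over all genes, so nothing is read from that count.

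Transcript length moved with direction in these lists, and the channel genes were long. The 20 genes listed in homozygotes had a median longest transcript of 6259 nt, against 4060 nt for the 226 channel and receptor genes in no list. Over all genes, the median was 4868 nt among those lower, 2698 nt among those higher and 2839 nt among protein-coding genes not listed in homozygotes. Of the 20 listed channel genes, 19 were lower (95.0%), against 61.0% of the 1065 other listed genes. Within the channel genes' own range of 1323 to 12305 nt, 64.2% of 962 other listed genes were lower. Above their median length, all 10 channel genes were lower, against 87.3% of 229 other listed genes. The only higher channel gene, Kcne3, had the shortest transcript, 1323 nt, and the shortest lower ones were P2rx3 (1812 nt), Glra1 (2390 nt) and Kcna5 (2862 nt). The part of length in the direction, or in which channel genes were listed at all, was not tested.

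**Figure D4:**
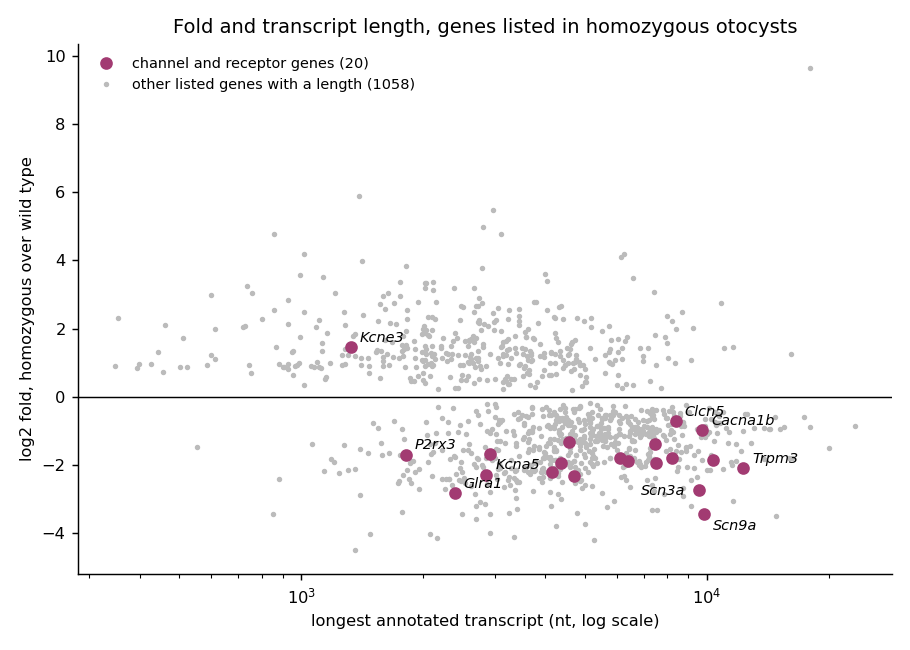
Log2 fold in homozygous otocysts (y axis, authors' deposited table) against the longest annotated transcript (x axis, nt, log scale) for the 20 listed channel and receptor genes and 1058 other listed genes with a length. Channel genes lie below 0 from 1812 to 12305 nt, and the one above 0, Kcne3, is the shortest at 1323 nt.

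Few channel genes were listed in heterozygous otocysts. Of the 248 annotated genes, 1 was lower (0.403%), against 0.429% of all annotated protein-coding genes, and 1 was higher (0.403%), against 0.182%. The counts of 1 do not set these genes apart from others. Grik3, a kainate-type glutamate receptor subunit, was 1.67-fold higher (log2 0.74 and adjusted p 0.000356, per the authors' deposited table). The median of all 43 higher genes was 0.94 on the same log2 scale per the authors' deposited table. Cacna1g, the pore of a low-voltage-activated T-type calcium channel, stood at 82.3% of wild type (log2 -0.28 and adjusted p 0.00264, per the authors' deposited table). That was a small fall, ranked 89 of 95 by size. Grik3 and Cacna1g were not listed in homozygotes, and the 20 genes listed in homozygotes were not listed in heterozygotes. Listed in both genotypes were 5.16% of all homozygous and 40.6% of all heterozygous calls. With counts this small, and the same wild type libraries behind both comparisons, nothing is read from that absence. In heterozygotes 1 neuron marker was lower and 2 were higher, and 0 of the 45 synapse and release genes were listed. Other marker lists did hold heterozygous calls. Over all annotated protein-coding genes the shares were 0.429% lower and 0.182% higher, but these lists were chosen with earlier results of these data known. Lower were 3 of 6 neural tube progenitor markers, Shh (log2 -5.54), Foxa2 (-3.42) and Nkx2-2 (-3.02), per the authors' deposited table. The other progenitor markers, Olig2, Pax6 and Sox1, were not listed. Also lower were 3 of 7 mesenchyme and 1 of 5 red blood cell markers, while 2 of 7 neural crest and glia markers were higher. No muscle, endothelium or otic epithelium marker was listed in heterozygotes.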

How the data were processed

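RNA sequencing of otocysts was deposited by the authors as 4 lists of called genes, lower and higher in homozygous and in heterozygous otocysts. Per the file headers, each list gives a log2 fold and an adjusted p-value for a gene, computed by the authors before deposit. Groups follow the genotype in the sample titles. Bowtie2 2.0.6, DESeq 1.22.1 and the build mm9 appear in the submitters' processing notes without roles. Filters, the counting step and its treatment of paralogues are not given in these sources. No test was run, since the lists hold no values per library, and the authors' calls were counted as deposited. The 22 members and the gene lists were chosen with earlier results of these data known, and every listed member is named except 1 that is not reported here. Symbols were matched to GENCODE M21 (1078 of 1085 homozygous and 137 of 138 heterozygous genes), which gave protein-coding genes, longest transcripts, strand and neighbours. Its build differs from mm9, so it gave no coordinates. Percentages of wild type were computed from the log2 folds. Promoter windows come from RefSeq on GRCm38.p6, and the motif search was tested on simulated sequences. Of each other list, at most 4 listed genes are named, those with the smallest adjusted p. Python 3.11.15, pandas 2.3.3 and matplotlib 3.10.9 were used.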

Additional observations from a re-analysis of the deposited data

How the results depend on the processing

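The 19 lower channel genes in homozygotes came to 14 at an adjusted p of at most 0.01, 17 with a log2 fold of 1 or more in size, 15 without auxiliary subunits and, in an alternative chosen after seeing the data, 18 without X-linked genes. Without auxiliary subunits 0 channel genes were higher in homozygotes, as Kcne3 is one. With the same minimum fold, 0 were lower and 0 higher in heterozygotes. The median log2 fold of the 20 genes listed in homozygotes was -1.87, and became -1.85 at the stricter adjusted p and -1.89 without auxiliary subunits. With 8 non-coding transcripts added to the denominator, 7.81% rather than 8.06% of annotated genes were listed. Above the median length, chosen after seeing the data, 100% of listed channel genes were lower. No paired analysis was possible because the lists hold comparisons and no libraries, so no replicate could be left out either. Depth per library is unknown and limits which low genes could be listed.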

Other observations

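The genes listed as lower in homozygotes lay unevenly on the chromosomes. Chromosome 2 held 6 of the 19 channel genes (31.6%), against 10.1% of the 248 annotated channel and receptor genes and 9.12% of all 669 lower genes. Chromosome 3 held 4 (21.1%), against 6.05% and 6.28%. Scn3a and Scn9a lie in the sodium channel cluster of chromosome 2 with 5 coding genes between them, Scn1a and Scn2a included. Of those 5, neither sodium channel gene was listed, while Csrnp3 was lower (log2 -0.77) and Galnt3 higher (log2 1.54) in homozygotes, per the authors' deposited table. Trpm3 lies beside Cemip2, which was also lower and was listed as Tmem2. Such adjacency is not rare, as 8.76% of the 651 protein-coding genes listed as lower had an adjacent lower gene. These shares are descriptions of where the genes lie, chosen after their values were seen.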
